A study of Sus scrofa with 102 samples.

Results

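ATP2A1, PYGM and PPP1R3B, a calcium pump and a pair of genes of glycogen use and storage, were followed in Longissimus dorsi, the loin muscle, of 102 pigs. The genes were taken by their symbols in the platform annotation, which gave 5 of the 5449 probes tested: 2 for ATP2A1, 2 for PYGM and 1 for PPP1R3B. These were 3 of 2201 named genes, measured on all 102 arrays, and the probe with the highest mean stood for ATP2A1 (mean log2 level 13.20) and for PYGM (12.90).

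A muscle fibre contracts when calcium leaves the sarcoplasmic reticulum and relaxes when a calcium pump returns it at the cost of ATP. ATP2A1 encodes the pump of fast-twitch fibres, SERCA1, and ATP2A2 encodes the one used by slow fibres and the heart. PYGM, the muscle glycogen phosphorylase, releases glucose 1-phosphate from glycogen for glycolysis, and PPP1R3B carries protein phosphatase 1 to glycogen, where it switches glycogen synthase on and phosphorylase off. Fast glycolytic fibres prevail in the pig loin and are known for rich glycogen stores and high phosphorylase activity.

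The animals were backcross pigs from Iberian × Landrace crossing, fed ad libitum, with 1 array a pig and no pooling of RNA. They were slaughtered in 3 batches: batch 1 with 14 pigs (8 females and 6 males, 171 to 181 days old, carcasses of 46.2 to 81.4 kg), batch 3 with 18 pigs (11 females and 7 males, 178 to 181 days, 43.6 to 80.9 kg) and batch 2 with 70 pigs (36 females and 34 males, 178 to 184 days, 49.9 to 97.8 kg). No treatment was applied, so the design gives the comparisons of batch, sex and carcass weight and the relations between genes across pigs. Many of the pigs were related and their pedigree was not used here, and p-values measure the spread between these pigs.

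Values are log2 levels after GCRMA, so that a difference of 1 is a doubling of the probe signal, and levels were set against each other only within a probe. Differences come from a limma fit with sex, slaughter batch and carcass weight together, and a difference was called where its p, adjusted over all probes by the Benjamini-Hochberg method, was under 0.05. The deposited probes had been chosen for variation over the arrays, so calls were frequent: the F test of slaughter batch called 86.6% of all probes. Of 13 genes that mark fast fibres none was among the probes, so the fast-fibre origin of the signal could not be checked, and of 10 general skeletal muscle genes only DES, desmin, was measured (mean log2 level 12.98).

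Technical measures of the arrays were set against the batches. The 5′ minus middle difference of the actin control probes, a measure of how complete the RNA was, had means of −1.28 ± 0.30, −1.32 ± 0.43 and −0.80 ± 0.29 for batches 1, 3 and 2 (SD, n = 14, 18 and 70). It moved with 52.8% of all probes once sex, batch and weight were fitted. Correlation with the other arrays was low on 6 arrays, of which 1 was in batch 1, 4 were in batch 3 and 1 was in batch 2. The lowest, of a batch 3 male, had a median correlation of 0.748, against 0.815 for the next and a median of 0.897. On 3 arrays of pigs labelled female, a Y-linked probe went against the label. For genes of other cells, signals were summed over the genes of a list and the sum was put on the log2 scale. This value had medians of 13.47 in batch 1, 13.15 in batch 3 and 12.65 in batch 2 for 5 fibroblast genes. For 4 macrophage genes the medians were 9.26, 9.08 and 8.39. Of these fibroblast genes 4 were called higher and 1 lower in batch 1 than in batch 2, and 3 higher and 1 lower in batch 3, while of the macrophage genes 4 and 2 were called higher and 0 lower. Of all probes, 32.7% and 36.2% were called higher in these contrasts of batches 1 and 3. None of 6 lymphocyte genes and none of 6 red blood cell genes was among the probes. In whole muscle, fewer cells of a type and less RNA per cell cannot be told apart, and the part of these measures in the results was not tested beyond the fits named below.

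ATP2A1, the fast-fibre calcium pump, was lower in batches 1 and 3 than in batch 2. Its lowest, median and highest log2 levels were 10.54, 12.22 and 13.91 in batch 1, 10.73, 12.24 and 13.08 in batch 3, and 11.24, 13.49 and 14.99 in batch 2. Thus 13 of 14 batch 1 pigs and 18 of 18 batch 3 pigs lay under the batch 2 median, while 1 pig of each lay under the lowest batch 2 pig. Mean levels were 12.23 ± 0.72, 12.17 ± 0.51 and 13.66 ± 0.75 in batches 1, 3 and 2 (SD).

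After sex and weight were fitted, ATP2A1 was 2.58-fold lower in batch 1 than in batch 2 (log2 difference −1.37, SE 0.21, adjusted p = 2.08e-08). In batch 3 it was 2.67-fold lower than in batch 2 (−1.42, SE 0.20, adjusted p = 3.44e-10). The same contrasts called 74.2% and 81.5% of all probes, 41.5% and 45.3% as lower, so the calls alone did not set ATP2A1 apart. In size, 4.11% of all probes had a lower coefficient in batch 1 against batch 2, and 6.55% in batch 3 against batch 2. The other ATP2A1 probe gave −1.72 and −2.06. With the actin difference in the fit the effects were −0.78 and −0.77, both still called (adjusted p = 0.000233 and 9.43e-05).

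**Figure D1:**
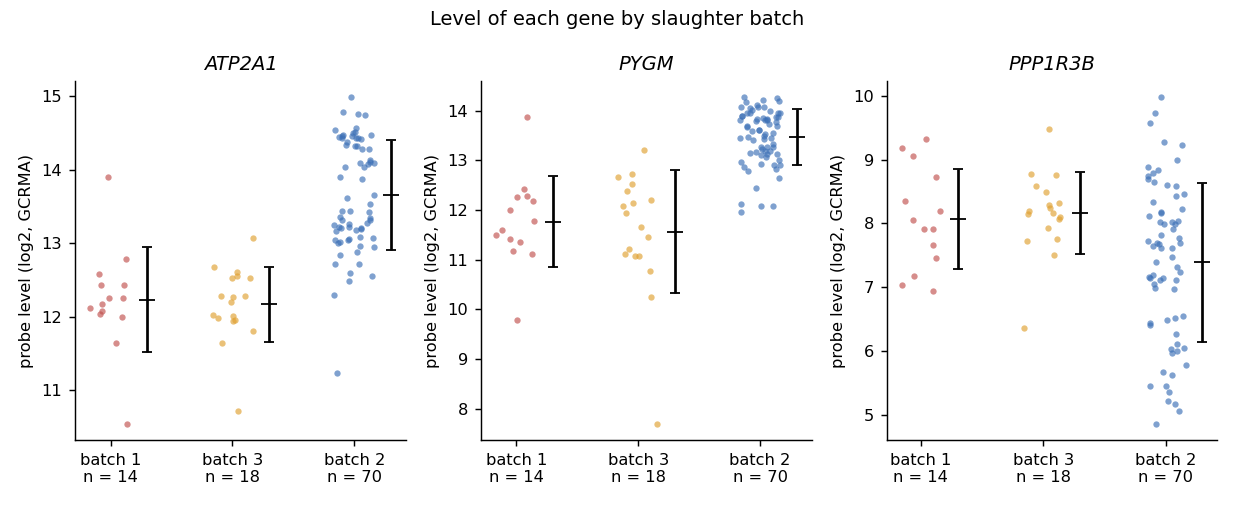
Log2 level of the ATP2A1, PYGM and PPP1R3B probes in each pig, by slaughter batch (points, pigs; bars, mean ± SD; n = 14, 18 and 70). For ATP2A1 and PYGM nearly all pigs of batches 1 and 3 sit under the batch 2 mean, while for PPP1R3B they sit inside the batch 2 range, which runs from 4.85 to 9.97.

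Other genes that handle calcium moved in both directions between these batches. Of 13 measured besides ATP2A1, 3 were higher and 7 lower in batch 1 than in batch 2, and 3 were higher and 8 lower in batch 3 than in batch 2, with median differences of −0.55 and −0.82 against −0.11 and −0.17 over all probes. With the actin difference fitted the counts were 2 higher and 4 lower in batch 1, and 2 higher and 7 lower in batch 3. In the fits without the actin difference, 41.5% and 45.3% of all probes were called lower in these contrasts.

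Among the lower genes was ORAI1, the store-operated calcium channel of the surface membrane (−1.68 in batch 1 and −2.26 in batch 3). RYR1, the channel that releases calcium from the reticulum, gave −0.81 and −0.97, and TMEM38A, a potassium channel that accompanies this release, −0.98 and −0.97. FKBP1A, which binds and steadies RYR1, was lower in batch 3 (−1.09).

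ATP2A2, the slow-fibre pump, was higher in both batches (0.66 and 0.74), as was PLN, the phospholamban that restrains that pump (0.61 and 1.04). One of 3 probes annotated here as ATP2A2 went the other way, with −0.53 in batch 1 and −0.73 in batch 3. The paper assigns that probe to RDH16, so it may not measure ATP2A2. Slow-fibre genes, a list that also holds ATP2A2 and PLN, were called higher for 3 of 8 and lower for 0 in batch 1, and higher for 4 and lower for 1 in batch 3, where 32.7% and 36.2% of all probes were called higher in the contrasts of batches 1 and 3. Of these, TPM3, the slow tropomyosin, gave 0.74 in batch 1 and 0.61 in batch 3.

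PYGM was lower in the same batches. The lowest, median and highest log2 levels of this phosphorylase were 9.78, 11.68 and 13.87 in batch 1, 7.69, 11.80 and 13.20 in batch 3, and 11.97, 13.57 and 14.27 in batch 2. Of the batch 1 pigs 13 of 14 lay under the batch 2 median and 8 under the lowest batch 2 pig. In batch 3, 18 of 18 lay under that median and 10 under that lowest pig. The mean levels were 11.77 ± 0.91, 11.56 ± 1.24 and 13.47 ± 0.56 in batches 1, 3 and 2 (SD).

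The fitted difference of PYGM was −1.63 in batch 1 against batch 2 (SE 0.23, 3.09-fold lower, adjusted p = 1.27e-09). It was −1.82 in batch 3 against batch 2 (SE 0.21, 3.52-fold lower, adjusted p = 6.35e-13). Only 1.91% and 2.09% of all probes had lower coefficients in these contrasts, and the other PYGM probe gave −2.16 and −2.45. Without the array of the lowest correlation, which held the 7.69, the batch 3 difference was −1.52. With the actin difference fitted the values were −0.93 and −1.06, and both remained called (adjusted p = 1.84e-05 and 3.16e-07).

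Batches 1 and 3 could not be separated by any of the 3 genes. The difference of batch 1 minus batch 3 was 0.05 for ATP2A1 (95% interval −0.45 to 0.54), 0.19 for PYGM (−0.35 to 0.72) and −0.07 for PPP1R3B (−0.76 to 0.63), with adjusted p of 0.923, 0.686 and 0.925. This contrast called 16.8% of all probes. Within batch 1, the 5 pigs slaughtered at 171 days averaged 12.42 ± 0.88 for ATP2A1 and 12.09 ± 1.12 for PYGM, and the 9 slaughtered at 177 or 181 days averaged 12.13 ± 0.64 and 11.59 ± 0.79 (SD), so the spreads overlapped.

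The enzymes and regulators around glycogen were mostly lower along with PYGM. Of 8 other glycogen genes measured, 6 were lower and 1 higher in batch 1 than in batch 2, and 6 were lower and 2 higher in batch 3 than in batch 2. Their median differences were −0.76 and −0.95, and with the actin difference fitted the counts were the same. In the fits without the actin difference these contrasts called 74.2% and 81.5% of all probes, 41.5% and 45.3% as lower.

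GYS1, the glycogen synthase of muscle, was lower by this fit (−1.47 in batch 1 and −1.90 in batch 3). So were PPP1CA, a catalytic subunit of protein phosphatase 1 (−1.26 and −1.52), and STBD1, which tethers glycogen to membranes (−0.85 and −1.08). PPP1CB, the catalytic subunit most often found with glycogen, gave −0.68 and −0.98. PRKAG3, the muscle subunit of the AMP-activated kinase known in pigs for its effect on glycogen content, gave −1.08 in batch 1. UGP2, which makes the UDP-glucose that feeds the synthase, went up in batch 3 (0.74, adjusted p = 1.37e-08) and had 0.11 in batch 1 (adjusted p = 0.434).

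Genes of glycolysis, the pathway that takes the sugar onward, were mostly lower too. In batch 1, 8 of 11 were lower than in batch 2 and 0 were higher (median −0.61), and in batch 3, 8 were lower and 1 was higher (median −1.11). Of all probes, 74.2% and 81.5% were called in these contrasts, 41.5% and 45.3% as lower. GAPDH had −1.32 in batch 1 and −2.31 in batch 3, GPD1, the glycerol 3-phosphate dehydrogenase of the cytosol, −1.30 and −1.94, and SLC16A3, the lactate exporter of glycolytic fibres, −1.69 in batch 1. Of these 11 genes, 5 were called higher in batch 1 than in batch 3, among them TPI1 (0.85) and ENO1 (0.82). That contrast called 16.8% of all probes in either direction. Desmin was lower as well (−1.03 and −1.28).

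The actin difference moved with ATP2A1 and PYGM from pig to pig. After sex, batch and weight had been taken out, its Pearson r was 0.610 with ATP2A1 (Spearman rho 0.612) and 0.666 with PYGM (rho 0.617), each with the smallest p that 100000 permutations can give, 1e-05 (adjusted over 30 relations, 5e-05). For PPP1R3B r was −0.140 (permutation p = 0.158, adjusted p = 0.296). Without the 2 pigs farthest in actin difference r was 0.563, 0.570 and −0.131 for ATP2A1, PYGM and PPP1R3B.

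Within batches, r of the actin difference with ATP2A1 was 0.556 in batch 1, 0.416 in batch 3 and 0.711 in batch 2, and with PYGM 0.739, 0.598 and 0.724. In batch 3 these values rested on the array of the lowest correlation, whose actin difference was −2.43: without it r was −0.170 for ATP2A1 and 0.119 for PYGM. By r the relation passed the adjusted threshold in batch 2 for both genes and in batch 1 for PYGM (adjusted permutation p = 5e-05 and 0.0056). By rho it passed in batch 2 for both genes (0.727 and 0.741, adjusted permutation p = 5e-05). In batch 1 rho with PYGM was 0.626 and did not pass (adjusted permutation p = 0.0575). Without the 2 batch 1 pigs farthest in actin difference, r with PYGM was 0.537.

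**Figure D2:**
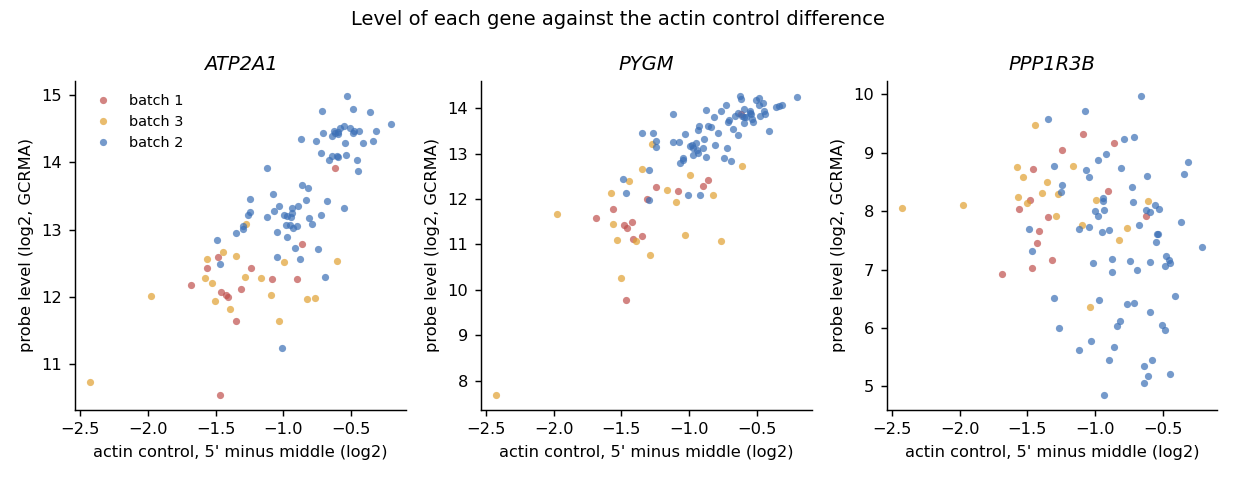
Log2 level of each gene (y) against the 5′ minus middle difference of the actin control probes (x, log2), 1 point a pig, coloured by slaughter batch. ATP2A1 and PYGM climb with the actin difference (residual r 0.610 and 0.666) and PPP1R3B shows no such slope (r −0.140).

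PPP1R3B, the phosphatase subunit, ran the other way between batches. Its lowest, median and highest log2 levels were 6.93, 7.98 and 9.32 in batch 1, 6.37, 8.18 and 9.49 in batch 3, and 4.85, 7.61 and 9.97 in batch 2. Above the batch 2 median lay 10 of 14 batch 1 pigs and 16 of 18 batch 3 pigs, but none lay outside the batch 2 range. The means were 8.07 ± 0.79, 8.16 ± 0.64 and 7.39 ± 1.24 in batches 1, 3 and 2 (SD).

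The fitted difference of PPP1R3B was 0.68 in batch 1 against batch 2 (SE 0.30, 1.61-fold higher, adjusted p = 0.0327) and 0.75 in batch 3 against batch 2 (SE 0.27, 1.68-fold higher, adjusted p = 0.0101). Both calls were lost when the actin difference was fitted (0.49 and 0.54, F of batch 1.91 with adjusted p = 0.179). The first was also lost with age in the fit (0.53, adjusted p = 0.253). By the F test of batch PPP1R3B ranked 4384 of 5449 probes, ATP2A1 1266 and PYGM 709.

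Sex divided the genes differently. PPP1R3B was 1.98-fold higher in females than in males (log2 difference 0.98, SE 0.20, adjusted p = 0.000127), whereas ATP2A1 and PYGM gave −0.00 (95% interval −0.29 to 0.28, adjusted p = 0.988) and 0.04 (−0.27 to 0.35, adjusted p = 0.877). Sex called 26.1% of all probes, 14.4% as lower in females, and PPP1R3B ranked 146 among all of them by p. Its difference kept its call in every alternative fit that was run, between 0.98 and 1.29.

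Within batches the difference passed the threshold in batch 2, where PPP1R3B averaged 7.94 ± 0.93 in 36 females and 6.81 ± 1.27 in 34 males (SD, difference 1.14, two-sided permutation p = 7e-05, adjusted over 9 comparisons 0.00063). There 28 of 34 males lay under the female median and 4 of 36 females under the male median, while 2 males lay under the lowest female, so the groups overlapped along most of their range. In batch 3 the means were 8.42 ± 0.48 in 11 females and 7.75 ± 0.67 in 7 males (difference 0.67, two-sided exact permutation p = 0.016, adjusted p = 0.0718). In batch 1 they were 8.21 ± 0.68 in 8 females and 7.88 ± 0.94 in 6 males (difference 0.33, exact permutation p = 0.446, adjusted p = 0.474). A difference of the sex effect between batches was not shown for PPP1R3B (F = 1.42, adjusted p = 0.750), nor for ATP2A1 (F = 2.11, adjusted p = 0.701) or PYGM (F = 3.03, adjusted p = 0.653); limma called 0% of probes for it, with 425 at an unadjusted p under 0.05.

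**Figure D3:**
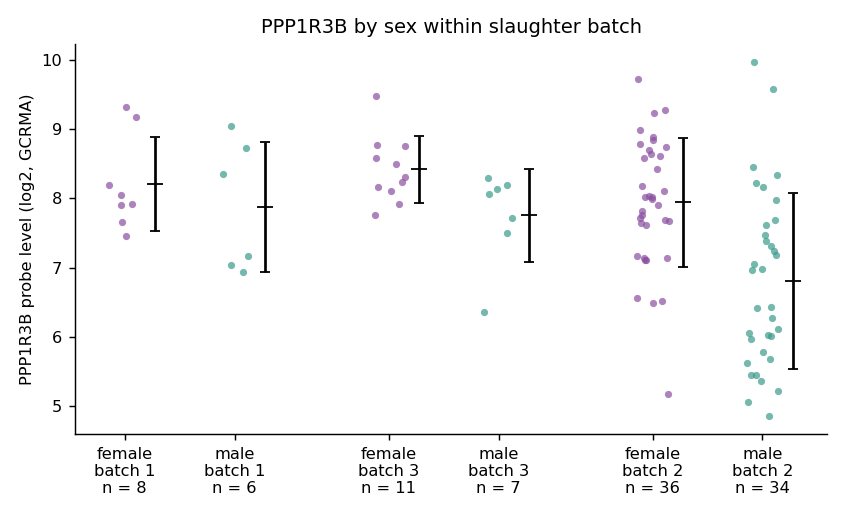
PPP1R3B log2 level in females and males of each slaughter batch (points, pigs; bars, mean ± SD). The gap is widest in batch 2, with 7.94 in 36 females and 6.81 in 34 males, and the low end of the scale is filled mainly by batch 2 males.

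Neighbours of these genes were called for sex no more often than probes in general, of which 26.1% were called. Of the 8 other glycogen genes, PRKAG3 was higher in females (0.41, adjusted p = 0.00766) and PGM2, a phosphoglucomutase, lower (−0.29, adjusted p = 0.00895), and none of the 13 other calcium genes was called, the lowest adjusted p being 0.0538. ATP2A1 and PYGM were called lower in females only where batch 2 was fitted alone with the actin difference (−0.32 and −0.30, adjusted p = 0.0358 and 0.00752).

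Carcass weight had no called slope for any of the 3 genes. Per 10 kg the log2 level changed by 0.08 for ATP2A1, 0.10 for PYGM and 0.09 for PPP1R3B (adjusted p = 0.699, 0.633 and 0.764), and limma called 0% of probes for weight, with 589 at an unadjusted p under 0.05. With batch and sex left out of the fit, the slopes of ATP2A1 and PYGM were 0.32 and 0.39 and were called (adjusted p = 0.00198 and 0.00101). Carcasses averaged 65.9 ± 10.2 kg in batch 1, 64.6 ± 11.7 kg in batch 3 and 73.3 ± 8.85 kg in batch 2 (SD).

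ATP2A1 and PYGM rose and fell together from pig to pig. With sex, batch and weight taken out, their r over 102 pigs was 0.759 (rho 0.773), at the smallest possible permutation p of 1e-05 (adjusted 5e-05), and 0.737 without the 2 pigs farthest in ATP2A1. In the fit over all probes PYGM moved with ATP2A1 at an adjusted p of 1.48e-18, but 64.3% of all probes were called in this fit, 32.8% of all upward, and PYGM ranked 164 of 5448 by p. With the actin difference fitted r was 0.597 (adjusted p = 1.3e-09). With 2 principal components of the residuals in the fit, r was 0.14 and was not called (adjusted p = 0.349). The residuals of these genes were among those that gave the components. Whether r fell for this reason or through variation shared with many other probes was not tested. The relation did not differ between the sexes beyond error (slope difference, female minus male, −0.16 per SD of the ATP2A1 residual, adjusted p = 0.849). For a difference of the ATP2A1 slope by sex limma called 0% of probes, with 316 at an unadjusted p under 0.05.

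In each batch the correlation was high, yet its slope was not the same. For 14 batch 1 pigs r was 0.923 (rho 0.833, adjusted permutation p = 0.000557), for 18 batch 3 pigs 0.853 (rho 0.674, adjusted p = 0.000562) and for 70 batch 2 pigs 0.826 (rho 0.825, adjusted p = 5e-05). Without the 2 pigs farthest in ATP2A1 of each batch r was 0.666, 0.529 and 0.819. PYGM gained 1.19 log2 units per log2 unit of ATP2A1 in batch 1 (SE 0.14), 2.00 in batch 3 (SE 0.31) and 0.61 in batch 2 (SE 0.05).

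The difference between these slopes gave F = 29.8 (adjusted p = 3.84e-07), the highest rank among 5448 probes, of which 11.5% were called for a difference of the ATP2A1 slope by batch. Leaving out the array of the lowest correlation, which held 10.73 for ATP2A1 and 7.69 for PYGM, cut the batch 3 slope to 1.33 (SE 0.40, r 0.646) and the F to 9.79 (adjusted p = 0.0259). Without all 6 arrays of low correlation F was 8.71 (adjusted p = 0.0543), and with the actin difference fitted it was 7.99 (adjusted p = 0.22). In females, who do not include that array, F was 3.62 (adjusted p = 0.45), and in males it was 27.3 (adjusted p = 2.42e-05). Taken the other way over all pigs, the ATP2A1 slope on PYGM differed by batch with F = 22.5 (adjusted p = 3.15e-07). There ATP2A1 ranked only 154 of 5448, and 36.7% of all probes were called.

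**Figure D4:**
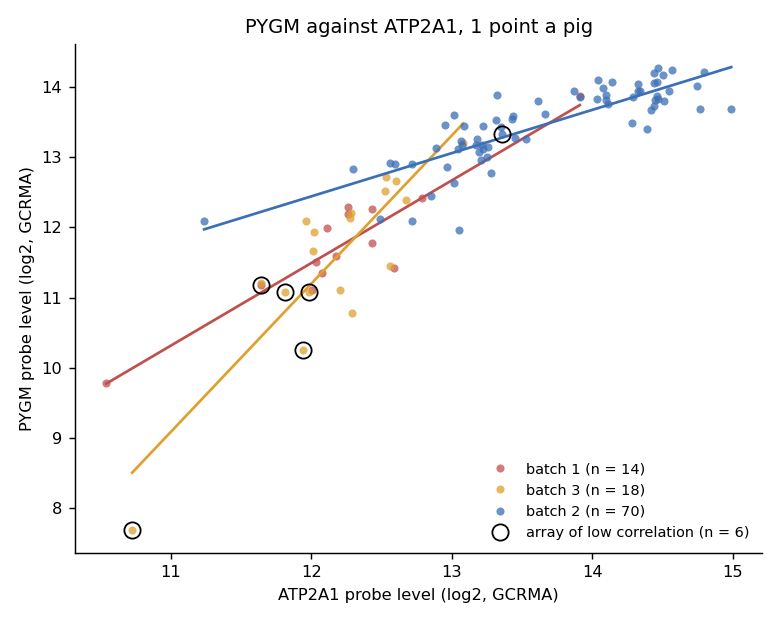
PYGM log2 level (y) against ATP2A1 log2 level (x), 1 point a pig, with the least-squares line of each slaughter batch; rings mark the 6 arrays of low correlation. Batch 2 pigs crowd the upper right and their line is the flattest, and the batch 3 line is drawn steep by the ringed pig at 10.73 and 7.69.

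The batch 2 pigs did not spread evenly in ATP2A1. Of 70, 24 lay between 13 and 13.5 on the log2 scale, 5 between 13.5 and 14, and 22 between 14 and 14.5. Below the gap at 13.66 to 13.87 were 38 pigs, 22 females and 16 males, in which r of ATP2A1 with PYGM was 0.66 (rho 0.63). Above it were 32 pigs, 14 females and 18 males, in which r was −0.01 (rho 0.03). The line drawn at the gap was chosen after the values were seen, and cutting the range of ATP2A1 lowers its r by construction, so these values are given as a description with no test and say nothing of a difference between the sets.

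PPP1R3B followed neither gene. Its r was −0.079 with ATP2A1 (rho −0.113, permutation p = 0.427, adjusted p = 0.534) and −0.029 with PYGM (rho −0.020, permutation p = 0.772, adjusted p = 0.799). Within batches 1, 3 and 2 the values were 0.117, 0.239 and −0.135 with ATP2A1, and 0.269, 0.018 and −0.120 with PYGM, none past the adjusted threshold. Without the array of the lowest correlation r with ATP2A1 in batch 3 was 0.553 (adjusted permutation p = 0.0527).

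Of the 13 other calcium genes, 6 moved with ATP2A1 upward and 2 downward, a share near the 64.3% of all probes, and their median r was 0.07. By the smallest p, r was 0.86 for HRC, a calcium-binding protein of the reticulum, 0.80 for RYR1, 0.71 for ORAI1 and 0.71 for TMEM38A, and the known partners PLN and ATP2A2 had −0.31 and −0.29. The other probes annotated as ATP2A2 had r of −0.14 and 0.20, the latter being the probe that the paper assigns to RDH16. Of 11 glycolytic genes 9 moved upward and 1 downward (median r 0.59, against −0.04 over all probes), with 0.88 for GAPDH, 0.80 for GPD1, 0.72 for SLC16A3 and 0.69 for TPI1. GAPDH kept r of 0.93, 0.91 and 0.88 within batches 1, 3 and 2.

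Glycogen genes moved both ways with ATP2A1, 3 of 8 upward and 4 downward. All probes split likewise, with 1789 of 5448 upward and 1715 downward. GYS1 had r of 0.79 (0.71 and 0.80 for its other probes), STBD1 0.65 and PRKAG3 0.59, whereas UGP2 had −0.47 and PPP1CB −0.34. The value of GYS1 was 0.76 and 0.85 within batches 1 and 2 but 0.27 within batch 3.

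With PYGM, 67.3% of all probes were called, 35% of all upward. Upward went 6 of 13 calcium genes, 3 of 8 glycogen genes and 8 of 11 glycolytic genes, with 2, 2 and 1 downward. Its r was 0.78 with GPD1, 0.77 with GAPDH, 0.67 with STBD1, 0.65 with ORAI1 and 0.60 with RYR1. For GYS1 it was 0.49, with 0.68, 0.01 and 0.74 within batches 1, 3 and 2, and 0.26 once the actin difference was fitted.

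PPP1R3B moved with 39.6% of all probes, 20.4% downward, and its relations lay in other gene groups. Immediate-early genes, which muscle and other tissues switch on within minutes of a stimulus, were called downward for 10 of 12 and upward for 0 (median r −0.41). FOSL2 had r of −0.59, MYC −0.53, ATF3 −0.53 and the nuclear receptor gene NR4A3 −0.50. Genes that rise with glucocorticoids and fasting were called downward for 8 of 10 and upward for 0 (median −0.40), led by PDK4, which holds back glucose oxidation (−0.59), the transcription factor KLF15 (−0.56), GADD45A (−0.51) and PPARGC1A, the coactivator of oxidative metabolism (−0.43).

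Within batches, r was closer to 0 in batch 3 than in batches 1 and 2 for the 3 genes given next. FOSL2 had r with PPP1R3B of −0.75, −0.08 and −0.62 within batches 1, 3 and 2, KLF15 −0.71, 0.15 and −0.58, and PDK4 −0.65, −0.35 and −0.60. A difference of the PPP1R3B slope between batches was called for 0% of probes by limma, with 143 at an unadjusted p under 0.05. The actin difference changed little here: PDK4 had −0.61 and FOSL2 −0.59 with it in the fit. Other fits changed more. PPP1R3B moved with 2158 probes in the main fit, 434 in females only and 58 with 2 principal components of the residuals. With these components, r with PPP1R3B turned positive for ATF3, MYC, NR4A3, GADD45A and PPARGC1A. The cause of these changes was not tested.

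The same groups differed by sex in the direction opposite to PPP1R3B. In females 5 of 12 immediate-early genes and 8 of 10 glucocorticoid and fasting genes were lower than in males and 0 were higher. Of all probes, 14.4% were called lower in females and 26.1% in either direction. The log2 difference, female minus male, was −2.20 for NR4A3, −1.43 for PPARGC1A, −1.18 for FOSL2, −1.06 for ATF3, −0.91 for MYC and −0.64 for PDK4. The relations above were computed with sex in the fit.

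Slow-fibre genes went down as PPP1R3B went up, for 6 of 8 (median r −0.27), where 20.4% of all probes were called downward. MYL3, a slow myosin light chain, had −0.39, the slow troponins TNNC1 and TNNT1 −0.31 and −0.29, and CASQ2, the calsequestrin of slow and cardiac muscle, −0.28. Within batches the range for MYL3 was −0.30, −0.24 and −0.43 in batches 1, 3 and 2. Of the glycogen genes, 2 of 8 moved with PPP1R3B upward and 3 downward, where 39.6% of all probes were called in either direction. GYS1, whose enzyme the PPP1R3B protein helps to activate, had −0.35 (its other probes between −0.35 and −0.34), PGM2 −0.29, PPP1CC, a further catalytic subunit, 0.30, and STBD1 0.29. Among fibroblast genes 1 of 5 was called, COL3A1, a collagen, at 0.61, and desmin had −0.36. With 2 principal components of the residuals in the fit, r with PPP1R3B turned positive for TNNC1, TNNT1, CASQ2, PGM2 and desmin.

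**Figure D5:**
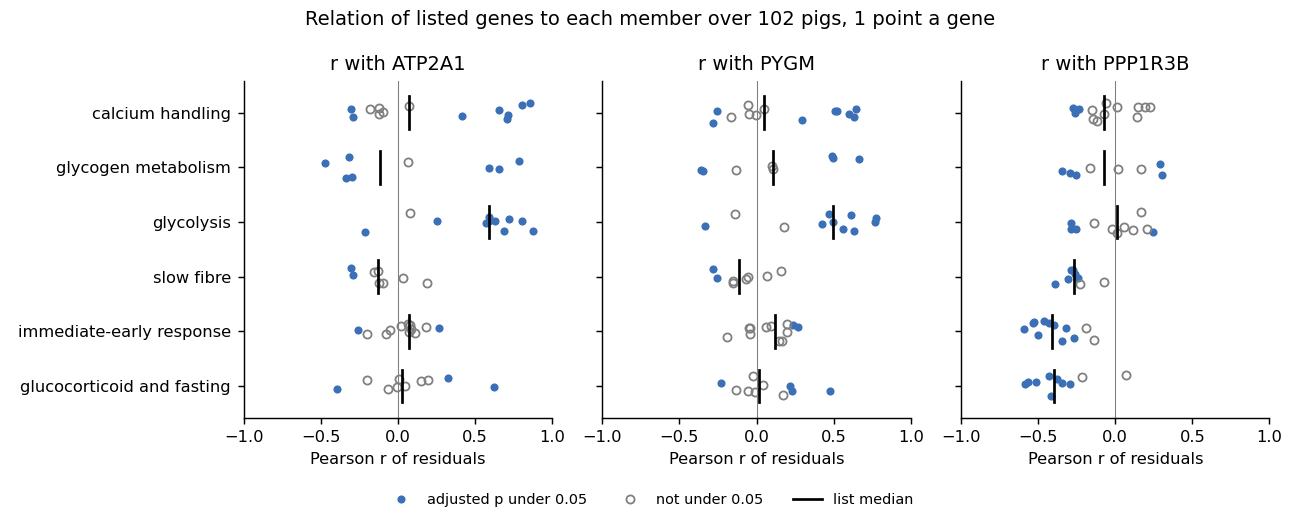
Pearson r of each listed gene with ATP2A1, PYGM and PPP1R3B over 102 pigs, after sex, batch and weight were taken out (points, genes; filled, adjusted p under 0.05; bars, list median). Glycolytic genes sit to the right for ATP2A1 and PYGM (medians 0.59 and 0.50), and immediate-early, glucocorticoid and fasting, and slow-fibre genes sit to the left for PPP1R3B (medians −0.41, −0.40 and −0.27).

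The genes most like each member over 102 pigs, were picked by r and are given with no test. Nearest to ATP2A1 were CAPZB, which caps actin filaments (r 0.90), BLOC1S1 (0.90), COPS7A (0.88), the transcription factor gene TFEB (0.88) and GAPDH (0.88), and most opposed were USP8 (−0.73), ARHGAP5 (−0.72), BECN1 (−0.71), DNAJC2 (−0.68) and SUGT1 (−0.68). Nearest to PYGM were UBAC1 (0.84), CAPN3, the muscle calpain (0.84), TCEA3 (0.83), BTBD6 (0.83) and LOC100153925 (0.82), and most opposed were PDPK1 (−0.79), USP8 (−0.76), TMED5 (−0.74), C9H11orf54 (−0.73) and FAM136A (−0.70).

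For PPP1R3B the nearest were the homeobox gene MEIS1 (0.78), TMPO (0.72), ING2 (0.70), SLC2A12, a sugar transporter (0.69), and NEO1 (0.69). The most opposed included PPP1R15A (−0.72), which carries the same phosphatase to another target, BAG3 (−0.71) and HSPB8 (−0.70), a chaperone pair that clears damaged muscle protein, EIF1B (−0.70) and RETREG1 (−0.69). MEIS1 had r of 0.72, 0.41 and 0.81 within batches 1, 3 and 2, and PPP1R15A −0.75, 0.03 and −0.77.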

How the data were processed

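RNA of the Longissimus dorsi of 102 pigs had been hybridised to Affymetrix GeneChip Porcine Genome arrays. The deposited values are log2 levels, which the authors normalised by GCRMA and filtered for probes that varied over the arrays. The table held 5493 probes, of which 44 controls were left out, and 0 columns went unused. Of the 5449 probes, 2639 had 1 gene symbol in the platform annotation, 49 had several and 2761 none; for 2619 the symbol was found in RefSeq.

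Effects were fitted with limma 3.58.1 in R 4.3.3 on sex, slaughter batch and carcass weight, with p-values adjusted over all probes. Relations used the residuals of a gene as a further effect, and permutation tests drew 100000 permutations (exact for sex in batches 1 and 3). The fits were tested on simulated data. Lists used the probe with the highest mean per gene; up to 4 genes per list and comparison were named by p, besides known partners of the 3 genes and the 5 nearest and 5 most opposed genes. COL3A1 and DES were named from the marker lists. The 3 genes and the lists were chosen with earlier results of these data known. Alternatives were other probes, quantile normalization, age, actin difference, spike-in mean, principal components, covariates, array weights, batch as a random block, subsets of pigs or arrays and a filter on low values. The number of arrays limits the precision. Array processing batches, the pedigree and coordinates were not used here.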

Additional observations from a re-analysis of the deposited data

Results flagged for a closer look

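The slope of PYGM on ATP2A1 differed between slaughter batches in the fit over all pigs (F = 29.8, adjusted p = 3.84e-07 for the interaction of the ATP2A1 level with batch in limma). PYGM changed by 1.19 (SE 0.14) per log2 unit of ATP2A1 in batch 1, 2.00 (SE 0.31) in batch 3 and 0.61 (SE 0.05) in batch 2, and the other PYGM probe gave F = 27.2 (adjusted p = 1e-06). The call held without the array of the lowest correlation (F = 9.79, adjusted p = 0.0259). It was lost with the actin difference in the fit (7.99, adjusted p = 0.22), without all arrays of low correlation (8.71, adjusted p = 0.0543), in females only (3.62, adjusted p = 0.45) and with 2 principal components (3.797, adjusted p = 0.284).

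Single pigs lay apart from their group by Dixon's criterion in 6 of 15 small groups examined, where chance marks about 5% of groups; the groups by sex and by age hold the same pigs. One batch 1 male was low in both ATP2A1, with 10.54 against 12.08 for the next of 6 males, and PYGM, with 9.78 against 11.35. It also lay apart among the 9 batch 1 pigs slaughtered at 177 or 181 days, where the next ATP2A1 level was 12.03. This male was the only one of these 9 slaughtered at 181 days, and its median array correlation was 0.838. One batch 1 female was high in PYGM, with 13.87 against 12.41 for the next of 8 females, and had 13.91 for ATP2A1. Without these 2 pigs r of ATP2A1 with PYGM in batch 1 was 0.666. In batch 3, 1 male had 6.37 for PPP1R3B against 7.50 for the next of 7 males.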

How the results depend on the processing

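Of 464 values of the members' 30 results under the alternatives, 388 kept direction and side of the threshold; 53 changed sign, 52 of them past the threshold in neither fit. For 135 results of named genes of the lists, 2037 of 2178 values did so, and 27 calls were lost with 2 principal components, 19 in females only and 19 in males only. The principal components come from residuals that hold the members' own signal. The depth of the arrays cannot be given, and the cause of a change was not tested, also where fewer pigs entered the fit. No paired analysis was possible because the replicate numbers were given in accession order within each batch and pair no pigs.

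PPP1R3B lost the F of batch with the actin difference (1.91), in females only (2.01) and with actin difference and age (1.55). Its difference of batch 1 minus batch 2 lost its call with age (0.53), with actin (0.49), in females (0.30), without the batch 1 pigs of 171 days (0.73) and with both actin and age (0.32). For batch 3 minus batch 2 this held with actin (0.54), in females (0.57), in males (1.03) and with actin and age (0.54).

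Batch 1 minus batch 3, past the threshold in no fit, turned for ATP2A1 with quantile normalization (−0.12), age (−0.16), actin (−0.0067), array weights (−0.077), in males (−0.050), without arrays of low correlation (−0.087), without the 171-day pigs (−0.099), with actin and age (−0.16) and without the lowest array (−0.051). For PYGM it turned with age (−0.085), weights (−0.072), in females (−0.065), without arrays of low correlation (−0.25), without the 171-day pigs (−0.053), with actin and age (−0.088) and without the lowest array (−0.063). For PPP1R3B it turned with weights (0.034), in males (0.17) and without arrays of low correlation (0.046).

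Female minus male of ATP2A1 turned for the other probe (0.017), with quantile normalization (0.14), age (0.0021), the spike-in mean (0.022) and without arrays against the labelled sex (0.015), and was called in batch 2 with actin (−0.32). For PYGM it was −0.024 with actin, −0.13 without covariates, −0.061 with weights, −0.20 in batch 2, −0.11 without arrays of low correlation, −0.30 in batch 2 with actin (called), −0.018 with actin and age and −0.044 without the lowest array. The weight slope of ATP2A1 was −0.0078 with actin and −0.0092 in males, −0.098 in batch 2 with actin, and 0.32 without covariates (called). For PYGM it was −0.00070, −0.087, −0.045 and 0.39 (called) in the same fits, and for PPP1R3B −0.15 without covariates.

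The r of ATP2A1 with PYGM was 0.14 with 2 principal components, no longer called. That of ATP2A1 with PPP1R3B was 0.082 with quantile normalization, 0.0082 with actin, 0.058 in batch 2 with actin and 0.0026 with actin and age, and −0.26 without covariates (called). That of PYGM with PPP1R3B was 0.0051 for the other probe, 0.14 with quantile normalization, 0.088 with actin, 0.070 in females, 0.0011 without arrays of low correlation, 0.10 in batch 2 with actin, 0.081 with actin and age, and −0.23 without covariates (called). The F of the ATP2A1 and PYGM slopes by batch lost its call with actin (7.99), principal components (3.797), in females (3.62), without arrays of low correlation (8.71) and with actin and age (7.77). Slope differences by sex, per SD of the ATP2A1 residual, turned for ATP2A1 and PYGM in batch 2 (0.042). For ATP2A1 and PPP1R3B they turned with quantile normalization (−0.027) and principal components (−0.055).

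Of the counts of called probes given in the text, these moved by over 1.5 times. Batch 1 minus batch 2 called 4045 probes and 2508 with actin and age. Batch 1 minus batch 3 called 914, against 243 with age, 1556 with principal components, 349 in females, 15 in males, 456 without the 171-day pigs and 379 with actin and age. Female minus male called 1422 and 2549 in batch 2 with actin. Weight called 0, against 1 with the spike-in mean, a random block or without arrays against the labelled sex or of low correlation, 2 without the lowest array, 258 with principal components, 3412 without covariates, 126 with weights and 45 in females. Probes moving with ATP2A1 numbered 3504, against 1128 with principal components, 2015 in males and 2186 in batch 2 with actin. With PYGM they numbered 3666, against 1399, 1914 and 2369, and with PPP1R3B 2158, against 58 with principal components, 3660 without covariates and 434 in females. The ATP2A1 slope by batch called 629 probes, against 2 with actin alone or with age, 356 with the spike-in mean, 21 with principal components, 165 with weights, 1 in females, 28 without arrays of low correlation and 40 without the lowest array. The PYGM slope by batch called 1999 probes, against 368 with actin, 385 with actin and age, 495 with principal components and 234 in females. It called 1027 in males, 924 without arrays of low correlation and 1277 without the lowest array. For the PPP1R3B slope by batch 0 were called, against 3 with actin alone or with age, 2 with principal components or in females, 1 without arrays against the labelled sex and 6 without arrays of low correlation. The ATP2A1 slope by sex had 0 and 2 with principal components, and sex by batch 0 and 2 without arrays of low correlation.

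With 2 principal components the r of these genes with PPP1R3B turned: ATF3 (0.044), CASQ2 (0.039), DES (0.082), GADD45A (0.16), MYC (0.082), NR4A3 (0.074), PGM2 (0.096), PPARGC1A (0.21), TNNC1 (0.0495) and TNNT1 (0.015). With ATP2A1 so did DES (−0.24) and PRKAG3 (−0.019). With PYGM so did GYS1 (−0.47, called), ORAI1 (−0.0049), PRKAG3 (−0.12), RYR1 (−0.27, called) and UGP2 (0.043). PGM2 also turned in females (0.0015), PPP1CB with ATP2A1 (0.30) and STBD1 with PPP1R3B (−0.0020) without covariates, and UGP2 in batch 1 minus batch 2 with actin (−0.014).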
